A study of Homo sapiens with 6 samples.

Results

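The genes described here encode the human proteasome and the proteins that assemble and regulate it. They were taken as the protein-coding genes whose symbol is PSM followed by a letter from A to G and a number, with a mean of at least 1 CPM (counts scaled to a library total of 1000000) over the 6 libraries. Of 60728 genes in the deposited count table, 48 carried such a symbol and 47 met the limit. They comprise 15 core subunits, 3 immunoproteasome subunits, 17 regulatory-particle subunits, 5 activators or inhibitors (one role here, called activators) and 7 assembly factors. The gene left out was PSMB11, the thymus-specific catalytic subunit, with a mean of 0.00865 CPM. The lowest genes inside the limit were PSMA8 at 3.87 CPM and PSMA6 at 4.43 CPM.

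The cells were JJN3, an established multiple myeloma line with the genotype given as WT in every group, so that all values come from one line. RNA was sequenced from 2 libraries of cells given the solvent DMSO, 2 of cells given WNK463 for 2 h and 2 of cells given WNK463 for 6 h. WNK463 is an inhibitor of the WNK (with no lysine) kinases. The sample protocols give its concentration as 5 µM and the series design gives 1 µM, and no duration is given for DMSO. Whether each library came from its own culture is not said in the labels, and the p-values therefore reflect spread between libraries that may be technical.

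Library totals ran from 18013790 to 24002291 counts, so that 3 counts correspond to 0.125 to 0.167 CPM. All 8 plasma cell markers examined were detected, with means of 17.7 to 621 CPM. Of 12 markers of other blood cells, 10 had means below 1 CPM, with CD3D and HBB among those at 0 in all libraries and PAX5 the highest at 3.07 CPM. Their summed level was 3.43 to 7.0 CPM per library. At 6 h against DMSO, PRDM1 and JCHAIN of the plasma cell markers rose and IRF4, XBP1 and MZB1 fell, and PAX5 fell among the others (edgeR adjusted p under 0.05). The plasma cell markers summed to 1822 to 1897 CPM in every library, and their part in the proteasome results was not tested.

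The proteasome degrades proteins tagged with ubiquitin. Its barrel-shaped core has outer rings of alpha subunits and inner rings of beta subunits, of which PSMB5, PSMB6 and PSMB7 carry the proteolytic sites. The immunoproteasome holds PSMB8, PSMB9 and PSMB10 in their place, and the regulatory particle binds, unfolds and feeds in the substrate. Plasma cells and myeloma cells, which secrete large amounts of immunoglobulin, depend heavily on this machine, and proteasome inhibitors are a standard treatment of myeloma.

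Proteasome transcripts were on balance lower after 6 h of WNK463, with small changes in the subunits and larger ones in PSMG1, PSMG4 and PSME3. At 6 h, 18 of the 47 genes (38.3%) were called lower than in DMSO and 0 were called higher by edgeR's quasi-likelihood test (adjusted p under 0.05). Over all 15548 genes tested, 18.6% were called lower and 18.0% higher. The median log2 change was -0.11 for the proteasome genes and -0.0050 for all genes tested, and 35 of the 47 had a negative log2 change. All 47 passed the filter on low counts. The 0 higher calls compare with 1 gene, PSMD10, at an unadjusted p under 0.05, and with 0 calls by DESeq2 and 0 by limma voom. Fewer transcripts per cell of these genes and more transcripts of others cannot be told apart in such relative values.

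The proteasome genes together took 0.626% and 0.620% of all counts under DMSO, 0.615% and 0.604% after 2 h of WNK463, and 0.582% and 0.581% after 6 h. Both 6 h libraries were below all 4 others. In CPM, both 6 h libraries lay below both DMSO libraries for 23 of the 47 genes and above them for 5, against 30.5% and 35.1% of all genes tested. Among the 18 genes called lower, 15 kept at least 0.75 of their DMSO level, and PSME3, PSMG1 and PSMG4 fell below that.

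**Figure D1:**
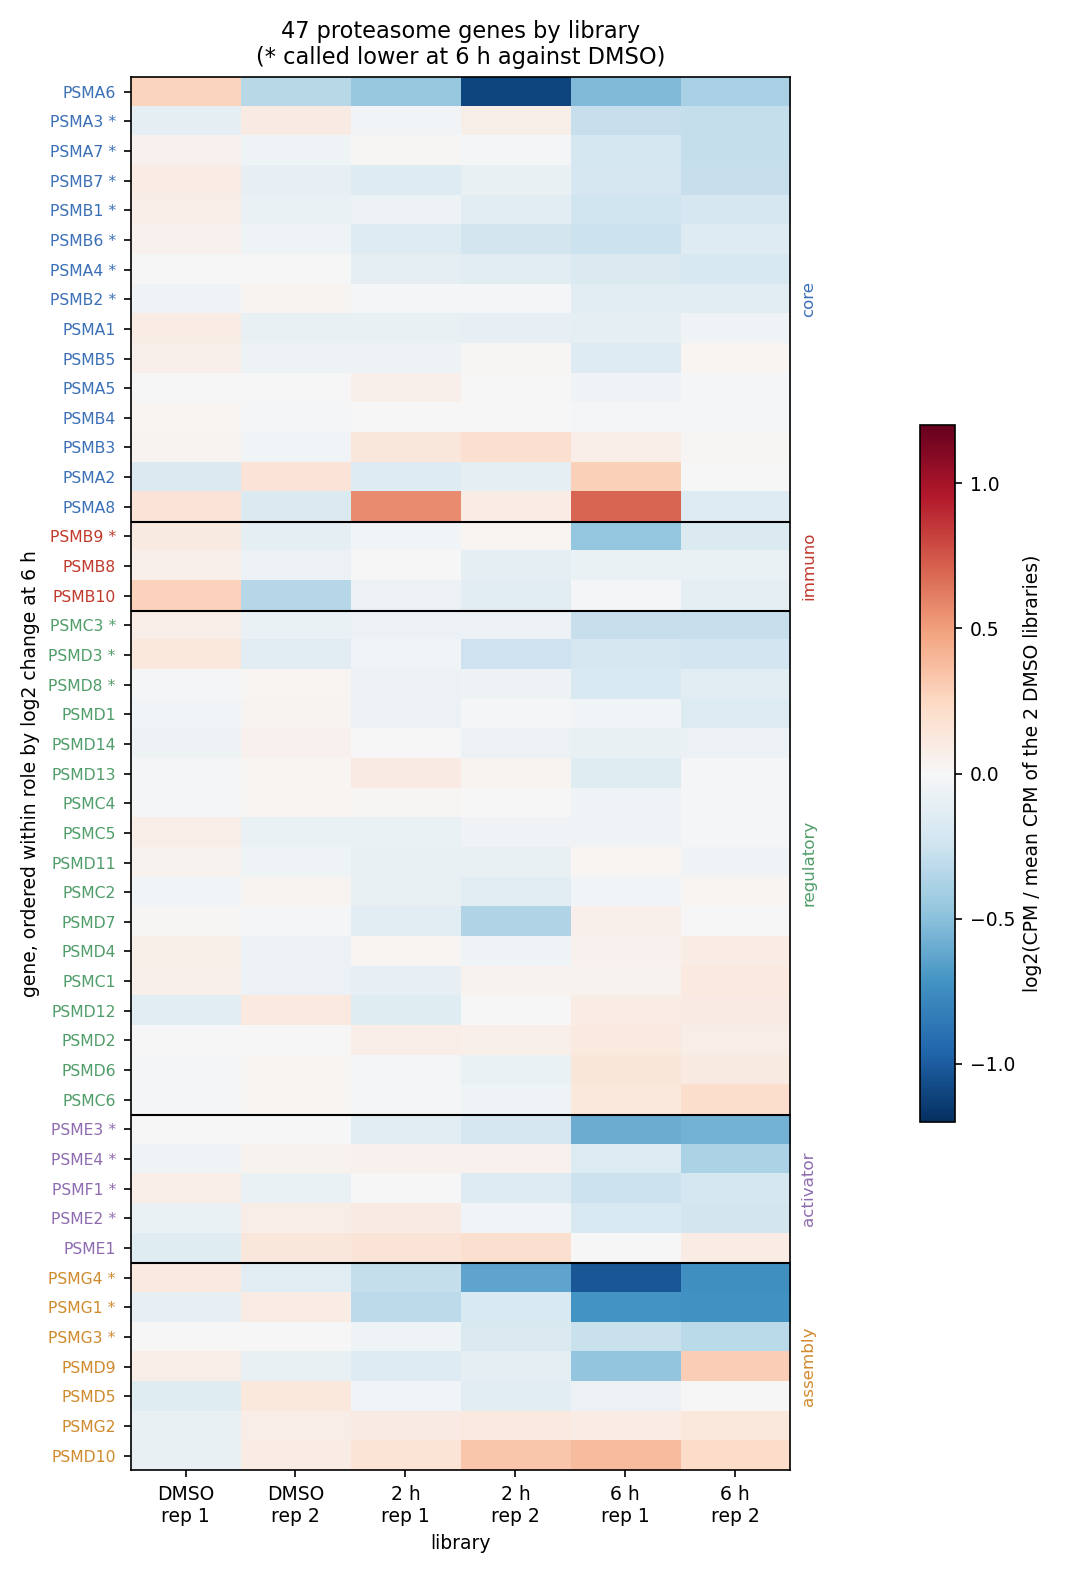
Each row is one of the 47 proteasome genes, grouped by role, and each column a library. Colour gives log2 of CPM relative to the mean of the 2 DMSO libraries, with blue for lower. The 2 columns of the 6 h group are blue for the 18 genes marked with an asterisk.

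At 2 h, little had changed. Only PSMG4 was called lower of the 47 genes and 0 were called higher, while 8.32% of all genes tested were called lower and 8.68% higher by edgeR. At an unadjusted p under 0.05 there were 3 higher and 5 lower. DESeq2 called 1 gene higher, PSMB3, and 0 lower, and limma voom called 1 higher and 2 lower. The median log2 change was -0.02, against -0.0049 for all genes tested. Both 2 h libraries lay above both DMSO libraries in CPM for 7 of the 47 genes and below them for 13, against 23.8% and 30.4% of all genes tested.

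Between 2 h and 6 h, 12 of the 47 genes (25.5%) were called lower and 0 higher by edgeR, against 13.1% and 11.1% of all genes tested. At an unadjusted p under 0.05 there were 18 lower and 1 higher. DESeq2 called 0 higher and limma voom called 1, PSMD7. The median log2 change was -0.11, against 0.01 for all genes tested. Both 6 h libraries lay above both 2 h libraries for 10 of the 47 genes and below them for 22, against 38.2% and 24.8% of all genes tested. The 6 h libraries are shared by this comparison and that with DMSO, and 11 of the 12 genes were called in both. PSMD13, a lid subunit, was called only against 2 h, at a log2 change of -0.21 (edgeR adjusted p = 0.0319). That call was lost without any one of the 2 h or 6 h libraries (edgeR adjusted p = 0.0531 to 0.43), and its change against DMSO was -0.11 (edgeR adjusted p = 0.252). The count of 12 rested on the libraries used: it was 21 without DMSO replicate 1, 22 without DMSO replicate 2, 6 and 8 without 2 h replicates 1 and 2, and 6 and 7 without 6 h replicates 1 and 2. From DMSO through 2 h to 6 h, the mean CPM was lower at each step for 18 of the 47 genes and higher at each step for 3, against 21.9% and 25.2% of all genes tested, which was not tested as a trend.

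The core particle had a median log2 change of -0.17 at 6 h against DMSO. Of its 15 genes, 7 were called lower, beside 18.6% of all genes tested. In the alpha rings, which gate entry to the chamber, these were PSMA3, PSMA4 and PSMA7. PSMA3 (ENSG00000100567.13, chr14:58244843-58272012, hg38) had 131 and 152 CPM in DMSO, 138 and 148 CPM at 2 h and 116 CPM in both libraries at 6 h. Both 6 h libraries were below the 4 others, which overlapped each other. Its log2 change at 6 h was -0.32 ± 0.077 (SE; edgeR adjusted p = 0.000845). PSMA7 changed by -0.28 (edgeR adjusted p = 0.000493) and PSMA4 by -0.22 (edgeR adjusted p = 0.0082). PSMA6 had 6.88 and 4.55 CPM in DMSO, 4.17 and 2.67 CPM at 2 h and 3.96 and 4.36 CPM at 6 h. Its treated libraries were all below DMSO, but at these low counts its log2 changes of -0.72 at 2 h and -0.49 at 6 h did not pass the test (edgeR adjusted p = 0.0822 and 0.192). PSMA8, an alpha subunit known from testis, was low and uneven, from 2.91 to 5.33 CPM over the libraries.

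Among the beta subunits, all 3 standard proteolytic ones had negative log2 changes at 6 h. PSMB6 and PSMB7 passed the test and PSMB5 did not. PSMB5, the subunit with chymotrypsin-like activity and the main target of bortezomib, had 61.6 and 56.6 CPM in DMSO, 56.8 and 59.6 CPM at 2 h and 53.0 and 60.1 CPM at 6 h. The 3 groups overlapped, and its log2 change at 6 h was -0.10 ± 0.096 (SE; edgeR adjusted p = 0.463). PSMB6, the caspase-like subunit, had 105 and 98.5 CPM in DMSO, 91.6 and 87.8 CPM at 2 h and 85.3 and 91.6 CPM at 6 h. All treated libraries lay below both DMSO libraries, and the log2 change at 6 h was -0.24 (edgeR adjusted p = 0.0175). PSMB7, the trypsin-like subunit, had 134 and 118 CPM in DMSO, 113 and 119 CPM at 2 h and 109.9 and 104 CPM at 6 h. The 6 h libraries were the lowest, at a log2 change of -0.27 (edgeR adjusted p = 0.00476). Whether these 3 changes differ from each other was not tested.

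Of the structural beta subunits, PSMB1 fell by 0.25 and PSMB2 by 0.17 on the log2 scale at 6 h (edgeR adjusted p = 0.00813 and 0.0289). PSMB3 and PSMB4 did not pass the test, at 0.01 and -0.05. At 2 h PSMB3 stood at 143 and 150 CPM, above its 134 and 128 CPM in DMSO, with a log2 change of 0.20 (edgeR adjusted p = 0.054).

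The immunoproteasome subunits are inducible by interferon and shape the peptides shown on MHC class I molecules. Only PSMB9 of the 3 was called lower at 6 h, beside 18.6% of all genes tested. PSMB9 (ENSG00000240065.8, chr6:32844136-32859851, hg38) had 46.4 and 39.8 CPM in DMSO, 42.2 and 43.8 CPM at 2 h and 31.3 and 38.1 CPM at 6 h. The 6 h libraries were the lowest, and the change of -0.34 ± 0.113 (SE, log2; edgeR adjusted p = 0.0138) lost its call without DMSO replicate 1 (edgeR adjusted p = 0.143) and without 6 h replicate 1 (edgeR adjusted p = 0.329). PSMB8 (ENSG00000204264.12, chr6:32840717-32844679) had 69.4 and 63.3 CPM in DMSO, 66.4 and 61.6 CPM at 2 h and 62.6 and 62.8 CPM at 6 h. Its 6 h values were just below the lower DMSO library and above one of the 2 h libraries, with a log2 change of -0.12 (edgeR adjusted p = 0.349). PSMB10 (ENSG00000205220.12, chr16:67934506-67936864) had 33.9 and 22.0 CPM in DMSO, 26.5 and 25.4 CPM at 2 h and 27.5 and 25.7 CPM at 6 h. The DMSO libraries enclosed all 4 treated ones. Its log2 change at 6 h was -0.10 (edgeR adjusted p = 0.639), but 0.24 without DMSO replicate 1 and -0.37 without DMSO replicate 2 (edgeR adjusted p = 0.0294 in the latter), so that 1 library set its direction.

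The inducible subunits can be set against the standard subunits they replace on a scale per exon length (TPM, the length-scaled share of transcripts, computed from the counts). PSMB8 made up 33.4% and 33.2% of the summed TPM of PSMB8 and PSMB5 in DMSO, 34.2% and 31.5% at 2 h and 34.5% and 31.7% at 6 h. PSMB9 made up 16.0% and 14.9% of its sum with PSMB6 in DMSO, 16.6% and 17.8% at 2 h and 13.7% and 15.3% at 6 h. PSMB10 made up 21.7% and 17.0% of its sum with PSMB7 in DMSO, 20.5% and 19.02% at 2 h and 21.6% and 21.4% at 6 h. On this scale the standard subunit was the more abundant transcript of each pair in all 6 libraries, but without the scaling for length PSMB8 held a mean of 52.9% in DMSO, so the order of PSMB8 and PSMB5 rests on the exon lengths used. Group means for PSMB9 were 15.5% ± 0.795 (SD, n = 2) in DMSO, 17.2% ± 0.824 at 2 h and 14.5% ± 1.11 at 6 h. The 6 h and DMSO libraries overlapped in all 3 pairs. With 2 libraries against 2, a two-sided exact permutation test cannot go below 0.333, so none was run.

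**Figure D2:**
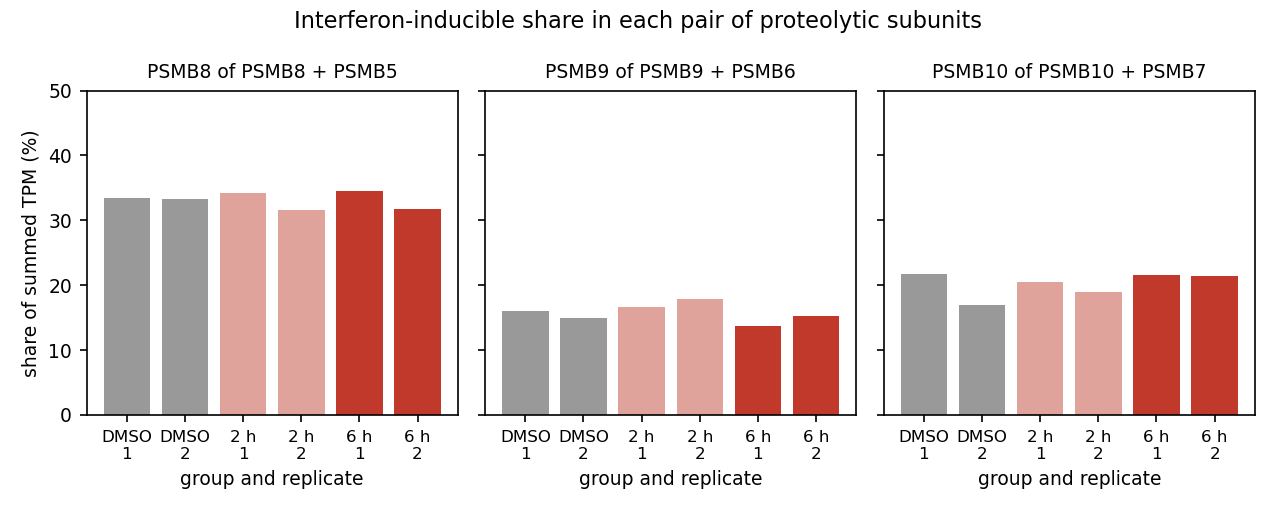
Bars give, for each library, the percentage of the summed TPM of a pair of proteolytic subunits that came from the interferon-inducible one. The share stayed between 31.5% and 34.5% for PSMB8, 13.7% and 17.8% for PSMB9, and 17.0% and 21.7% for PSMB10.

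The regulatory particle showed the smallest median change of the 5 roles at 6 h, -0.04, with 3 of 17 genes called lower, a share near the 18.6% of all genes tested. The rule by symbol leaves out SEM1, a lid subunit, and the ubiquitin receptor ADRM1, both called lower at 6 h and described below. PSMC3, one of the ring of ATPases that unfold the substrate (ENSG00000165916.8, chr11:47418769-47426473), had 141 and 126 CPM in DMSO, 127 CPM in both libraries at 2 h and 111 and 109.9 CPM at 6 h. Both 6 h libraries were below the 4 others, and the log2 change was -0.31 ± 0.075 (SE; edgeR adjusted p = 0.000942). The other 5 ATPases ranged from -0.06 for PSMC4 to 0.13 for PSMC6, and none of them was called. In the lid, which removes ubiquitin chains, PSMD3 fell by 0.25 and PSMD8 by 0.20 (log2; edgeR adjusted p = 0.00559 and 0.0426). PSMD14, the deubiquitinase itself, changed by -0.11 (edgeR adjusted p = 0.234). The scaffold subunits PSMD1 and PSMD2 and the ubiquitin receptor PSMD4 changed by -0.13, 0.06 and 0.04, and none was called.

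The activators cap the core in place of the regulatory particle, and the median log2 change of this role at 6 h was -0.26. Of its 5 genes, 4 were called lower, beside 18.6% of all genes tested. PSME3 encodes the nuclear activator ring (ENSG00000131467.11, chr17:42824385-42843760). It had 295 and 296 CPM in DMSO, 270 and 256 CPM at 2 h and 196 and 199 CPM at 6 h. The 3 groups did not overlap and the libraries within each were close. At 6 h it was at 0.653 of its DMSO level, a log2 change of -0.61 ± 0.063 (SE; edgeR adjusted p = 5.18e-11), and its change between 2 h and 6 h was -0.48 (edgeR adjusted p = 7.83e-08). At 2 h its change of -0.14 did not pass the test (edgeR adjusted p = 0.129).

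PSME4, the single-chain activator PA200, had 235 and 249 CPM in DMSO, 251 CPM in both libraries at 2 h and 216 and 187 CPM at 6 h, a log2 change of -0.30 against DMSO (edgeR adjusted p = 0.000363). PSMF1, which encodes the proteasome inhibitor PI31, fell by 0.26 (edgeR adjusted p = 0.0062). The interferon-inducible activator is a mixed ring of PSME1 and PSME2. PSME2 fell by 0.24 (edgeR adjusted p = 0.0163), and PSME1 changed by 0.01 (edgeR adjusted p = 0.96). The 2 h libraries of PSME1, at 123 and 126 CPM, were above its DMSO libraries, at 99.98 and 121 CPM (log2 change 0.20, edgeR adjusted p = 0.0789). The difference between the paired subunits was not tested.

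The assembly factors held the lowest log2 changes of all, at 6 h against DMSO, among the chaperones of the core. Of the 4 chaperones that build the alpha ring and core, PSMG1, PSMG3 and PSMG4 were called lower at 6 h, beside 18.6% of all genes tested. The median log2 change of the 4 was -0.54. PSMG4 (ENSG00000180822.12, chr6:3231403-3303373) works as a dimer with PSMG3. It had 26.9 and 22.6 CPM in DMSO, 20.3 and 15.9 CPM at 2 h and 12.2 and 14.9 CPM at 6 h. Every treated library was below both DMSO libraries and every 6 h library below both 2 h libraries. The log2 change was -0.42 ± 0.148 at 2 h (SE; edgeR adjusted p = 0.0395) and -0.90 ± 0.152 at 6 h (edgeR adjusted p = 4.49e-06), or 0.535 of the DMSO level. The 2 h call was lost with DESeq2 (adjusted p = 0.104), without DMSO replicate 1 (edgeR adjusted p = 0.248) and without 2 h replicate 2 (log2 change -0.26, edgeR adjusted p = 0.452). Of the exonic bases of PSMG4, 15% lie in exons of other genes on the opposite strand, among them SLC22A23, which itself changed by -1.35 (log2) at 6 h. None of the shared bases is coding, the counting ignored strand, and the part of the shared bases in the PSMG4 result was not tested.

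PSMG1 (ENSG00000183527.12, chr21:39174769-39183488) pairs with PSMG2. It had 62.8 and 71.5 CPM in DMSO, 53.9 and 59.1 CPM at 2 h and 40.8 and 40.7 CPM at 6 h, again without overlap between groups. The log2 change at 6 h was -0.76 ± 0.0996 (SE; edgeR adjusted p = 2.81e-08), or 0.592 of the DMSO level. PSMG3 fell by 0.33 (edgeR adjusted p = 0.00774). PSMG2 went from 81.8 and 92.0 CPM in DMSO to 92.4 and 95.0 CPM at 6 h, a change of 0.07 (edgeR adjusted p = 0.535), and -0.02 without DMSO replicate 1. The difference between the partners was not tested. Of the 3 chaperones of the regulatory-particle base, none was called. PSMD5 and PSMD9 both changed by -0.07, and PSMD10, also known as gankyrin, by 0.26 (29.7 and 33.6 CPM to 41.1 and 36.8 CPM; edgeR adjusted p = 0.0697).

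**Figure D3:**
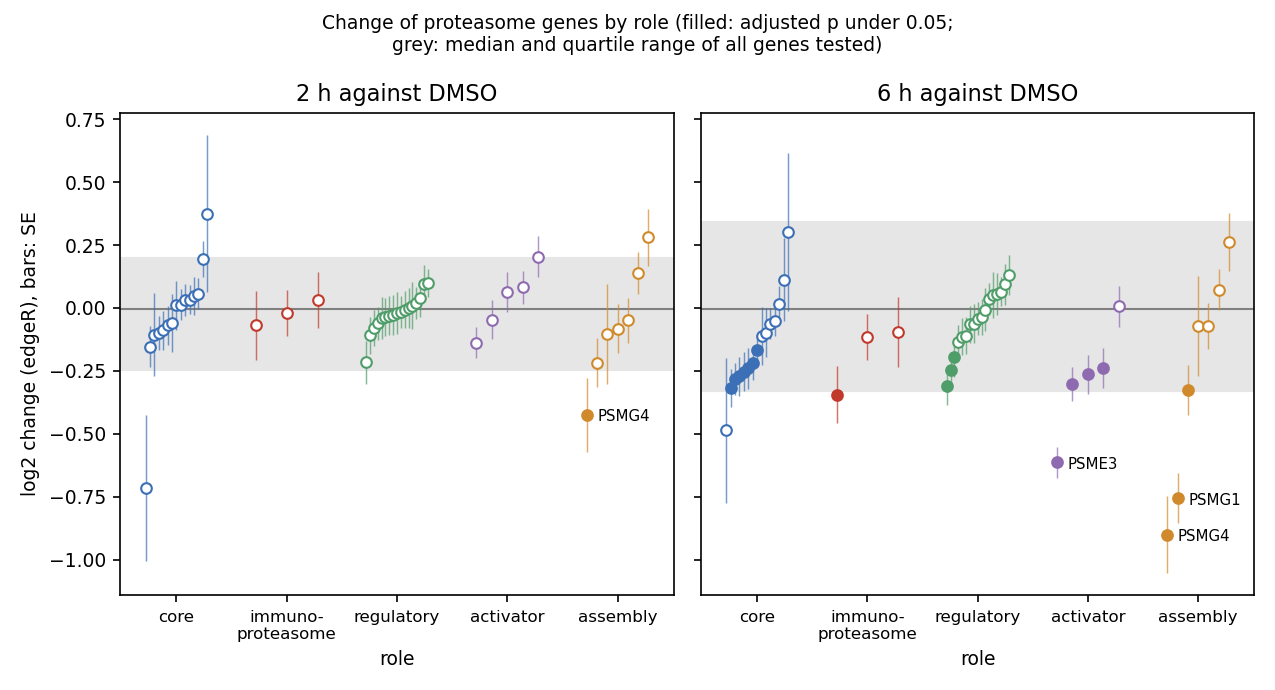
Points give the edgeR log2 change of each of the 47 genes against DMSO at 2 h and at 6 h, by role, with SE bars. Filled points passed an adjusted p of 0.05, and the grey band is the quartile range of all genes tested. At 6 h the filled points all lie below zero, and PSMG4, PSMG1 and PSME3 lie farthest, at -0.90, -0.76 and -0.61.

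**Figure D4:**
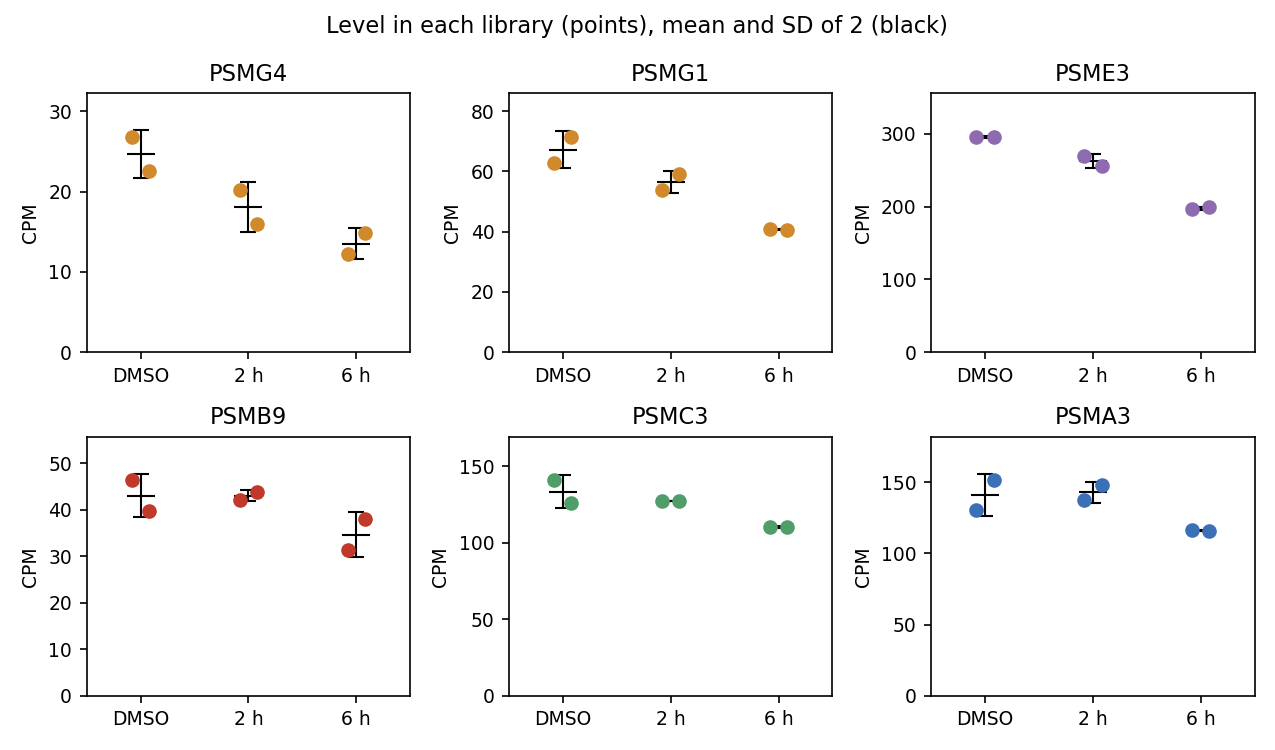
CPM of 6 genes in each library (points), with the mean and SD of the 2 libraries of a group in black. PSMG4, PSMG1 and PSME3 are lower at each time without overlap between groups, while PSMB9 and PSMA3 overlap between DMSO and 2 h and are lowest at 6 h.

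Of the 18 genes called lower at 6 h against DMSO, PSME3, PSMG1, PSMG4, PSMA3, PSMA7 and PSMC3 were called in all 14 alternative fits. Without DMSO replicate 1, PSMB1, PSMB6, PSMB9 and PSMD3 lost their call (edgeR adjusted p = 0.0555 to 0.143) and the log2 change of PSMD3 went from -0.25 to -0.12, and without DMSO replicate 2, PSMB2, PSMD8 and PSME2 did (edgeR adjusted p = 0.0691 to 0.142), with PSME2 at -0.15 and PSMA3, still called, at -0.20. PSMB2 and PSMD8 also lost it without either 2 h library (edgeR adjusted p = 0.0636 to 0.0796). Without 6 h replicate 1, 10 genes were called lower and PSMA4, PSMB1, PSMB2, PSMB6, PSMB9, PSMD8, PSME2 and PSMF1 lost their call (edgeR adjusted p = 0.0845 to 0.329), with PSMB9 at -0.21. Without 6 h replicate 2, 9 were called lower and PSMA4, PSMB1, PSMB2, PSMB7, PSMD3, PSMD8, PSME2, PSME4 and PSMG3 lost their call (edgeR adjusted p = 0.056 to 0.154), with PSME4 at -0.20.

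Transcript levels per exon length were uneven over the 47 genes, which include assembly factors as well as subunits built in at fixed ratios. In DMSO the median over the 47 genes was 114 TPM, with 165 TPM for the core, 122 for the regulatory particle, 114 for the activators, 64.0 for the assembly factors and 62.5 for the immunoproteasome. PSMB4 was the highest at 722 TPM, followed by PSMA7 at 488, PSMB3 at 408, PSMD4 at 321 and PSMD2 at 306 TPM. At the other end PSMA6 had 3.20 TPM, PSMD9 4.44, PSMA8 6.32, PSMG4 8.65 and PSMA2 9.48 TPM. This order rests on the union exon lengths, which ran from 1168 bases for PSMB3 to 10415 for PSMG4. By mean CPM over the 6 libraries, PSMD2 at 434 stood above PSMB4 at 420.

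Some of the low values coincide with exons that belong to more than one gene in the annotation used for counting. Fragments that fall in exons of several genes were assigned to none. The shares given here set coding bases of GENCODE 29 against the exons of GENCODE 34, the annotation used for counting. All 702 coding bases of PSMA2 lie in exons of ENSG00000256646, a gene on the same strand that itself had 0.186 CPM. The share of coding bases was 91.0% for PSMA1, 89.7% for PSMA6, 68.3% for PSMD9, 60.0% for PSMB10 and 47.7% for PSMC1. It was 30.0% for PSMD7, 10.0% for PSMC5 and 7.19% for PSMD11, and 37 of the 47 genes had none. The levels of these genes are therefore uncertain. The immunoproteasome share of PSMB10 carries the same limit, and ENSG00000261884, which shares its exons, changed by -1.08 (log2; edgeR adjusted p = 0.00707) at 6 h. PSMB8 and PSMB9 shared no coding base. Of all their exonic bases, 17.3% and 5.21% lay in exons of other genes, so their shares carry part of this limit. Of the 18 genes called lower at 6 h, only PSME2 shared a coding base, 0.139% of its coding sequence. The 44 pseudogenes named after these genes summed to 4.89 CPM, of which PSME2P1 held 2.27 CPM.

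**Figure D5:**
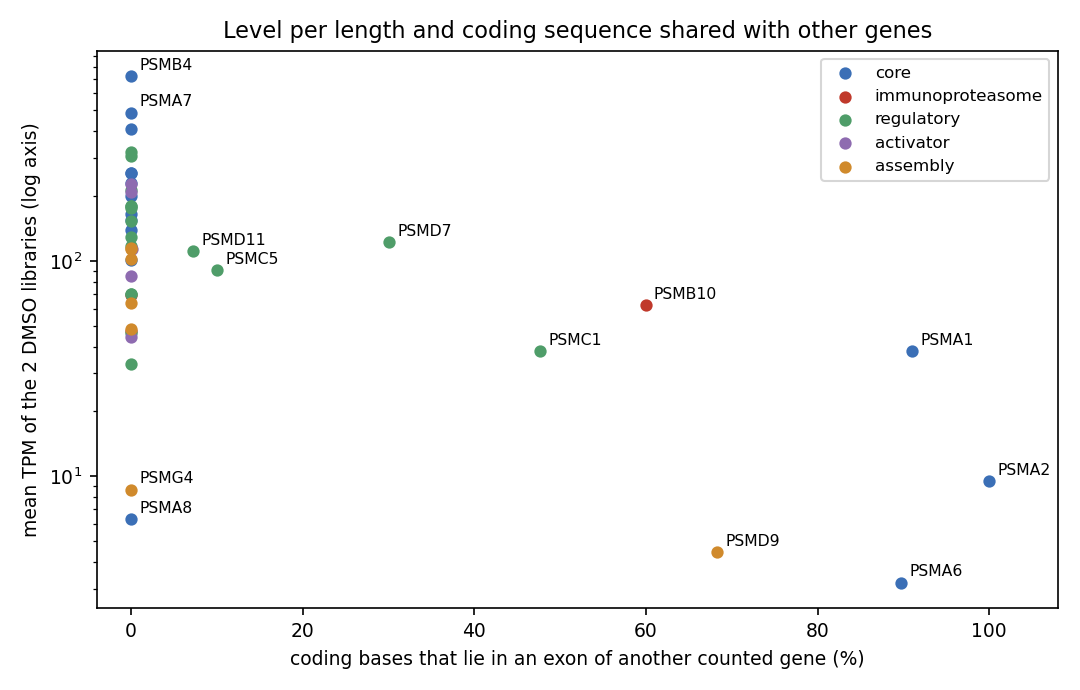
Each point is one proteasome gene, with the percentage of its coding bases that lie in an exon of another counted gene on the x axis and its mean TPM in DMSO on a log y axis. PSMA2 and PSMA6, with 100% and 89.7% shared, lie below 10 TPM, whereas PSMB4 and PSMA7 share none and lie highest. PSMA8 and PSMG4 also share none but lie below 10 TPM, and PSMA1, with 91.0% shared, lies at 38.2 TPM.

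Upstream sequence was examined for members that moved together, since proteasome genes are known to be driven by NFE2L1, which with a small MAF partner binds antioxidant response elements. RefSeq promoter windows of 300 bases (250 before and 50 after the start; GRCh38.p14) matched 41 of the 47 genes. The element core, searched as TGACNNNGC on both strands, occurred in 13 of 41 windows (31.7%) and in 13.6% of all 27305 windows. Among genes with a window it was in 5 of 13 called lower at 6 h and in 8 of 28 not called. The 6 genes without a window were PSMA7, PSMB1, PSMB6, PSMB7, PSMD4 and PSMG3. All of them except PSMD4 were called lower at 6 h, so the missing windows fall mostly among called genes. CACGTG, the E-box bound by MYC and its relatives, was in 3 of 41 windows (7.32%), against 7.43% of all windows. The letters GAAA, any 2 bases and GAAA again, as in an interferon-stimulated response element, were in 6 of 41 (14.6%), against 3.65% of all windows. A match describes letters and is not a site of binding.

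Printed here are the parts of the 250 upstream bases that lie outside every exon of the count annotation, given 5′ to 3′ on the strand of the gene, with motif matches in capitals. PSMG1, PSMB9 and PSMD3 are shown as genes called lower at 6 h with the element core, PSMB3 as a gene not called that holds both the core and an E-box, and PSMG4 as the gene with the lowest log2 change, which has no match in this stretch.
PSMG1, chr21:39183489-39183701, minus strand: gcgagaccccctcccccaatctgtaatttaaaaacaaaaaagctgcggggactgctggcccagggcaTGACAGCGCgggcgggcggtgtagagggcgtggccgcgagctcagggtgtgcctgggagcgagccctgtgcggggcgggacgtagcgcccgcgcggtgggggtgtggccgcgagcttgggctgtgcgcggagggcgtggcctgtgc
PSMB9, chr6:32853979-32854147, plus strand: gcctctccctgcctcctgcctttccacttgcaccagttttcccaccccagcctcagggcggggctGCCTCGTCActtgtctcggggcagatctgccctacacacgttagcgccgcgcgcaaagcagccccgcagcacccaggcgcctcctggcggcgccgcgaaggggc
PSMD3, chr17:39980557-39980806, plus strand: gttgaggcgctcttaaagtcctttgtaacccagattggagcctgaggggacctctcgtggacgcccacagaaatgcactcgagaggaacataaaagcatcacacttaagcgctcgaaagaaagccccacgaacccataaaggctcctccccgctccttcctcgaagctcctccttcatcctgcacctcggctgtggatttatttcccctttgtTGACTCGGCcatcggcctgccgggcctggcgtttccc
PSMB3, chr17:38752491-38752740, plus strand: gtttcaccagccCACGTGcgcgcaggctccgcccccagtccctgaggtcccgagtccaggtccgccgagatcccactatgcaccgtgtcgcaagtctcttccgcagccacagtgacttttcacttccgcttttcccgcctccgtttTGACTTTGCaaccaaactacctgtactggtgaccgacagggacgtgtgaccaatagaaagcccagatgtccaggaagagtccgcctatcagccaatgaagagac
PSMG4, chr6:3258697-3258896, plus strand: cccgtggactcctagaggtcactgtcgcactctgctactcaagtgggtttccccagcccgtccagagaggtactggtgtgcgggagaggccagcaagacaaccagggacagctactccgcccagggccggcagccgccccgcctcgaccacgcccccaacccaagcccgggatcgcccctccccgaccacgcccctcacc

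PSMG1 and PSMD3 carry the core on the strand of the gene and PSMB9 on the other, and PSMB3, with the core as well, changed by 0.01 at 6 h. The GAAA repeat of PSMG4 and the CACGTG match of PSME3 lie in annotated exons and are not printed.

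Genes around the proteasome moved in both directions. The counts that follow stand against 18.0% of all genes tested called higher and 18.6% called lower at 6 h, and 8.68% and 8.32% at 2 h. Of 16 partners (receptors, deubiquitinases, shuttle factors and the core chaperone POMP), 3 rose and 5 fell at 6 h against DMSO by edgeR, with a median log2 change of -0.08, so that the share that rose was near that of all genes. At 2 h ADRM1 fell and 0 of the partners rose by edgeR, where 3 were higher at an unadjusted p under 0.05 and DESeq2 and limma voom each called 1 higher. UBE3C, a ubiquitin ligase bound to the proteasome, went from 424 and 412 CPM in DMSO to 340 and 312 CPM at 6 h (log2 change -0.39, edgeR adjusted p = 5.53e-07). ADRM1, a ubiquitin receptor, fell by 0.43 (edgeR adjusted p = 1.35e-05) and UCHL5, the deubiquitinase that ADRM1 recruits, by 0.36 (edgeR adjusted p = 0.000126). The others that fell were POMP, from 78.6 and 77.7 to 66.1 and 64.8 CPM, and SEM1, the smallest lid subunit. UBQLN1, a shuttle factor, rose by 0.25 (edgeR adjusted p = 0.00139), AKIRIN2, which brings proteasomes into the nucleus, by 0.34 (edgeR adjusted p = 0.00181), and ZFAND5 by 0.19 (edgeR adjusted p = 0.0333).

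A list of 14 genes held NFE2L1, its processing factors and partners, and related factors. Of these, 7 rose and 2 fell at 6 h by edgeR, with a median log2 change of 0.17, and 4 rose and 1 fell at 2 h. The 7 include the related factors NFE2L2 and BACH1. The shares that fell were near those of all genes. NFE2L1 itself had 185 and 164 CPM in DMSO and 191 and 208 CPM at 6 h (log2 change 0.16, edgeR adjusted p = 0.0777). DDI2, the protease that cuts NFE2L1 into its active form, went from 193 and 218 CPM to 137 CPM in both libraries (log2 change -0.62, edgeR adjusted p = 1.13e-09). The small MAF partners moved in different directions: MAFK fell by 1.17 (edgeR adjusted p = 5.86e-11), whereas MAFF rose by 1.66 from 3.44 and 2.30 CPM to 9.86 and 8.62 CPM (edgeR adjusted p = 7.28e-08) and MAFG by 0.33 (edgeR adjusted p = 0.00173). SEL1L and SYVN1, the ligase complex that controls NFE2L1 at the endoplasmic reticulum, rose by 0.73 and 0.64 (edgeR adjusted p = 3.77e-13 and 5.46e-10).

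Among genes that supply ubiquitin, UBB rose by 0.32 at 6 h (138 and 142 CPM in DMSO to 174 and 183 CPM; edgeR adjusted p = 0.000235), and RPS27A, which encodes ubiquitin fused to a ribosomal protein, fell by 0.18 (edgeR adjusted p = 0.00368). Of 16 genes for MHC class I peptide processing, 5 rose and 3 fell at 6 h by edgeR, with a median log2 change of 0.05, and 4 rose and 1 fell at 2 h, so that the shares that fell were near those of all genes. TAP2, a subunit of the peptide transporter whose gene neighbours PSMB8 and PSMB9, fell by 0.40 (edgeR adjusted p = 4.01e-05) and ERAP2, a trimming peptidase, by 0.71 (edgeR adjusted p = 0.000619). The chaperone TAPBP rose by 0.31 (edgeR adjusted p = 8.34e-05) and the transcription factor IRF2 by 0.57 (edgeR adjusted p = 9.72e-07).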

How the data were processed

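Bulk RNA was measured in 6 libraries (3 groups of 2). The authors deposited a table of raw counts per gene, made with featureCounts 2.0.0 per the file headers: paired reads, both ends mapped, mapping quality of at least 20, strand ignored, GENCODE 34, no option for fragments that match several genes. Trimmomatic, STAR and hg38 are named in the submitters' processing notes, without versions.

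Symbols were found for 60415 gene IDs, and gene types and coding bases came from GENCODE 29. A record split over 2 extra lines was rejoined. CPM uses the library total and TPM the union exon length, whereas log2 changes use TMM factors (0.977 to 1.03). Counts were tested with edgeR 4.0.16 (R 4.3.3; quasi-likelihood, a mean per group, filterByExpr, 15548 genes, Benjamini-Hochberg). The biological coefficient of variation was 7.72%, one value for the 3 groups. The spread between the 2 libraries of a group was not equal. Over genes, its chi-square per degree of freedom was 9.17 for DMSO, 4.22 at 2 h and 3.62 at 6 h. The test was also run on counts simulated with one spread for all genes and groups, and that outcome is not reported here.

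Alternatives were library size, DESeq2 size factors, no filter, DESeq2 1.42.0, limma 3.58.1 voom, robust dispersions, a replicate block, only the groups compared and leaving out each library. A minimum of 10 CPM or none was also tried.

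Values in every library are given for PSMB5 to PSMB10 and for the called gene with the largest change in each role; up to 4 called genes of each list with the smallest adjusted p are named. Other genes were named after their values were seen. The members and lists were chosen with earlier results of these data known, so the listed genes support nothing independently. Promoters are from RefSeq. Figures used matplotlib 3.10.9. Protein sequences were not used here, and some genes of the lists are not reported here.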

Additional observations from a re-analysis of the deposited data

How the results depend on the processing

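No gene called lower reversed under any alternative. Over the 47 genes, 3 comparisons and 14 alternatives, 1852 values stayed on their side of the threshold, 64 lost a call and 58 gained one. At 2 h against DMSO the genes called lower numbered 2 by library size, 0 without the filter, 0 with DESeq2 and 2 with voom, and those called higher 1 with DESeq2 size factors, DESeq2, voom and robust dispersions. The median was -0.0527 by library size. Leaving out one library gave 0 to 3 higher, 0 to 3 lower and medians of -0.0333 to 0.00503. At 6 h against DMSO, 1 gene was higher by library size, with a median of -0.0763, and leaving out one library gave 0 to 1 higher, 9 to 16 lower and medians of -0.135 to -0.0983. At 6 h against 2 h, 1 gene was higher by library size, with voom and with only the groups compared, where 23 were lower. The median was -0.0422 by library size, and leaving out one library gave 0 to 1 higher, 6 to 22 lower and medians of -0.129 to -0.0893. Fewer libraries enter the fits that leave one out or use only the groups compared. Their counts of genes called lower at 6 h against 2 h moved both up and down, and why was not tested. Over all genes, the 6 h against 2 h calls were 1731 higher and 2041 lower, but 2409 and 1523 by library size. With the replicate block the calls were 0 higher and 1 lower at 2 h, 0 and 17 at 6 h against DMSO (PSMD8 was lost), and 0 and 12 at 6 h against 2 h. Same-numbered replicates did not deviate together over all genes tested (correlations of -0.0054 to -0.04). The labels do not say what they share, and these values cannot show it. On CPM in place of TPM, the PSMB8 share in DMSO, 2 h and 6 h was 52.9%, 52.4% and 52.6%, that of PSMB9 29.7%, 32.4% and 28.1% and that of PSMB10 17.9%, 18.3% and 19.9%. The limits are 2 libraries per group, one cell line, counts blind to strand and exons shared between genes.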
